A study of Homo sapiens with 6 samples.

Results

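The NR4A receptors NR4A1, NR4A2 and NR4A3, the zinc-finger factors EGR1, EGR2 and EGR3, and the corepressors NAB1 and NAB2 were measured by RNA sequencing in Karpas-45 cells, an established human line of T-cell acute lymphoblastic leukemia. The 8 genes were taken by name from 78932 gene identifiers, and 6 of them had enough reads to be tested among 17677 genes. The labels describe a lentiviral vector that carries a short hairpin RNA with GFP, and a sort of the GFP-positive cells 120 hours after the virus was added. The control group (genotype WT) carried a scramble hairpin and the other group (genotype MEF2C KD, hairpin shMEF2CKD2) a hairpin directed at MEF2C. Both groups are labelled untreated, as leukemic blasts of bone marrow. Each group held 3 libraries, named as technical replicates of 1 line and 1 hairpin, so the p-values below reflect technical spread alone. By its title the series studies menin, a chromatin scaffold, as a target in this leukemia.

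As background, NR4A and EGR genes are immediate-early genes: antigen-receptor signals switch them on within minutes, without new protein synthesis. Calcium signals act on NR4A1 through MEF2 factors, which class IIa histone deacetylases hold silent at rest, and NR4A1 (Nur77) is known for its induction in thymocytes under negative selection. EGR genes are induced mainly through RAS and ERK, by serum response factor (SRF) and its ETS partners at CArG boxes. EGR1, EGR2 and EGR3 bind GC-rich sites and are held back by NAB1 and NAB2, which bind the EGR proteins and recruit the CHD4 subunit of the NuRD complex, and NAB genes are themselves EGR targets.

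Sites of this kind were sought in the promoters of the members, for which RefSeq windows (GRCh38.p14) from 250 bases before to 50 after each start site were searched on both strands. The table matched 6 of the 8 symbols, with 11 windows. EGR1 is shown because its window held 2 CArG boxes, in capitals, at positions -105 to -96 and -83 to -74 from the start site. CArG boxes were present in 1.29% of 35116 such windows. The 250 bases before the start site of EGR1 lie on the plus strand at chr5:138465229-138465478.

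EGR1: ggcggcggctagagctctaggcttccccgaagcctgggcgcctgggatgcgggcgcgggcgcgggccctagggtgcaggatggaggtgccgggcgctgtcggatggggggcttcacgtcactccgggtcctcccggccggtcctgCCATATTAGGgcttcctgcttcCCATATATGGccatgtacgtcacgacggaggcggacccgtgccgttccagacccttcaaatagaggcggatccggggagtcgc

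EGR2 is shown beside it because 1 of its 3 windows also held a CArG box, at -71 to -62 (minus strand, chr10:62816418-62816447). NAB1 and NAB2 are shown because windows of both held the EGR site GCGGGGGCG, which 5.07% of all windows held. In NAB1 a pair of overlapping sites on the opposite strand ran from -42 to -28 (chr2:190648846-190648875), and in NAB2 1 site ran from -62 to -54 (chr12:57089042-57089071). Capitals mark the sites.

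EGR2: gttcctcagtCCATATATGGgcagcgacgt

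NAB1: cagcggcCGCCCCCGCCCCCGCccggcggc

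NAB2: tgtgcgtcctGCGGGGGCGgaggcgcggag

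Both of the NAB1 windows that hold this pair also held the other EGR site searched, GCGTGGGCG, found in 0.795% of windows. NR4A3 held 4 copies of TGACG, the core of the cyclic AMP response element, EGR1 and 1 window of EGR2 held 2, and each NAB1 window held 1, where 24.6% of all windows held at least 1. The full element TGACGTCA (1.85% of windows), the NR4A site AAAGGTCA (1.22%) and the MEF2 box (2.99%) were in no window of the members, which says only that these letters are not in these windows. For NR4A1 the windows had start sites at 52022832 and 52037715, in a gene that ends at 52059507, and the rest of the gene was not searched. CCGGAA (17.2%), the only ETS form searched, was found once, in an NR4A1 window. Shorter ETS forms such as GGAA were not searched, and the EGR1 stretch between its CArG boxes holds TTCC, which reads GGAA on the other strand. The GC box GGGCGG (15786 of the 35116 windows) was found in windows of NR4A1, NR4A3, EGR2, NAB1 and NAB2. A match is a description of sequence, and binding was not measured.

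Gene reads per library ran from 45560303 to 97077335, and 3 reads, used as the floor of detection, corresponded to 0.0304 to 0.0673 CPM, the read count scaled to library size. MEF2C itself received 3 reads over the scramble libraries and 2 over the MEF2C hairpin libraries, at or under the floor in each library, so the targeted gene could not check the labels. The T-cell identity of the line was visible in its markers, with 16 of 17 T-lineage markers tested and TRDC at 0 reads, and a summed level of 3374 to 3482 CPM (scramble) and 3566 to 3683 CPM (MEF2C hairpin). Markers of other cell types were low: the summed level per library was at most 2.65 CPM for 12 myeloid, 4.22 CPM for 8 B-lineage, 6.97 CPM for 8 NK, 8.36 CPM for 8 erythroid and 28.3 CPM for 9 embryonic kidney markers. FCGR3A, ELANE, VPREB1, CD22, NCR1, LHX1, EMX2 and NEFL were at 0 reads in all 6 libraries. Of the 14 tested markers of these other cell types, EPOR, GPC3 and PODXL were higher and CRABP2 lower. These 4 calls were lost without MEF2C hairpin replicate 3, and each also without at least 1 other library; their part in the results below was not tested. Reads aligned to more than 1 place took 16.1% in MEF2C hairpin replicate 3, against 3.56% to 6.86% in the other 5 libraries. In RNA from pooled cells, fewer cells expressing a gene and less RNA per cell cannot be told apart.

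The members differed between the groups in opposite directions: EGR1 was higher and NAB1 lower in the MEF2C hairpin libraries, and the other 4 tested members did not pass the threshold, an adjusted p under 0.05 in edgeR's quasi-likelihood test over all tested genes. That is 1 of 6 higher and 1 of 6 lower, where 13.5% of all tested genes were higher and 15.3% lower (28.8% in either direction). In 4 of the 6 the groups of 3 libraries did not overlap in CPM, which held for 39.9% of all tested genes. Neither share sets the members apart from the background.

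**Figure D1:**
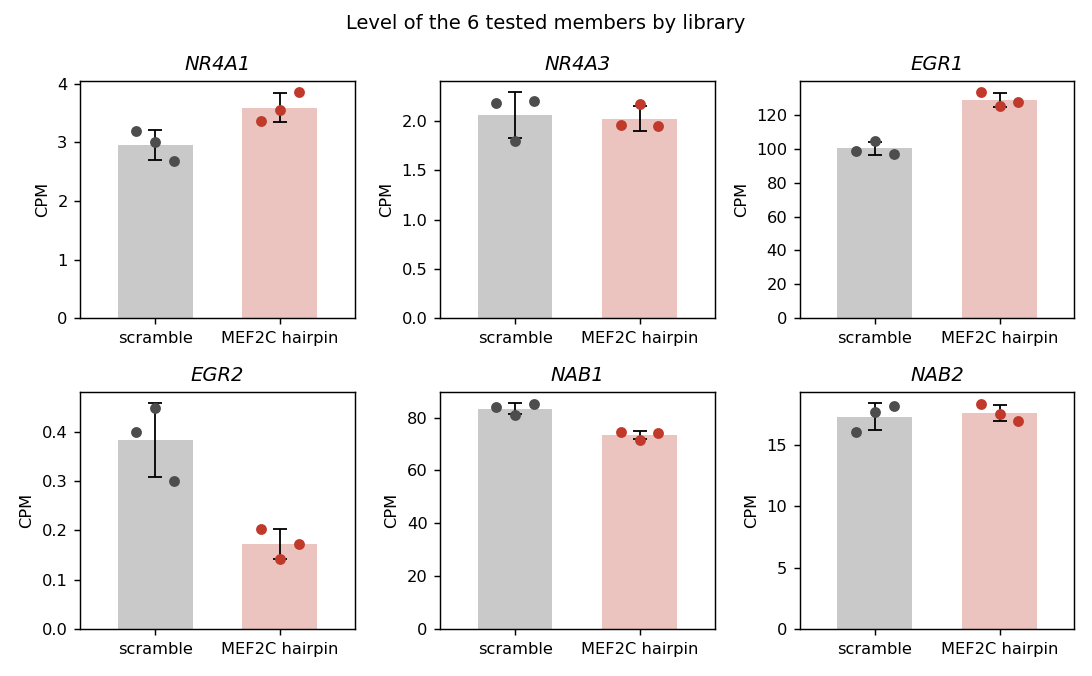
CPM of the 6 tested members in each library (points), with the group mean (bar) and SD (error bar, n = 3) for scramble (grey) and MEF2C hairpin (red). The groups do not overlap for NR4A1, EGR1, EGR2 and NAB1, and they overlap for NR4A3 and NAB2.

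NR4A1 (ENSG00000123358.20, chromosome 12, 52022832 to 52059507, plus strand) was low in both groups. It received 199, 134 and 161 reads in the scramble replicates and 200, 350 and 200 in the MEF2C hairpin replicates, in the order 1, 2 and 3 used throughout. Its level was 3.19, 3.00 and 2.69 CPM in the scramble libraries and 3.37, 3.55 and 3.85 CPM in the MEF2C hairpin libraries. Every MEF2C hairpin library lay above every scramble library, with a narrow gap between scramble replicate 1 and MEF2C hairpin replicate 1. The means were 2.96 ± 0.256 and 3.59 ± 0.246 CPM (SD over 3 libraries), a log2 fold change of 0.28 (SE 0.136). The edgeR adjusted p was 0.133, with an unadjusted p of 0.0493, so the difference was not past the threshold. An antisense gene, NR4A1AS, shares 754 of the 7295 exonic bases (10.3%) in GENCODE 29, and it received 0 reads in every library.

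NR4A2 (Nurr1, the member known for its role in dopamine neurons; ENSG00000153234.16, chromosome 2, 156324432 to 156342348) received 0 reads in all 6 libraries. A count of 0 over the 3 libraries has an exact Poisson 95% upper limit of 0.0221 CPM in the scramble group and 0.0176 CPM in the MEF2C hairpin group, for counting error only, and 3 reads over a group correspond to 0.0180 and 0.0143 CPM. No fold change is given for it.

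NR4A3 (NOR-1; ENSG00000119508.18, chromosome 9, 99821855 to 99866891) measured 2.18, 1.79 and 2.20 CPM in scramble replicates 1 to 3. It measured 1.95, 2.17 and 1.95 CPM in MEF2C hairpin replicates 1 to 3. The MEF2C hairpin libraries all lay within the range of the scramble libraries. The log2 fold change was -0.03 (SE 0.169, edgeR adjusted p = 0.937), so a change of the size measured for NR4A1 would lie within about 2 standard errors of this estimate. The pooled reads, 348 with the scramble and 431 with the MEF2C hairpin, gave exact Poisson 95% intervals of 1.87 to 2.32 and 1.86 to 2.26 CPM, which cover counting error only.

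EGR1, the serum- and antigen-induced activator (ENSG00000120738.8, chromosome 5, 138465490 to 138469315), was the most abundant member. It received 6170, 4672 and 5816 scramble reads against 7914, 12377 and 6636 with the MEF2C hairpin. Its level was 99.0, 105 and 97.0 CPM in the scramble libraries and 133, 125 and 128 CPM in the MEF2C hairpin libraries. The lowest MEF2C hairpin library (replicate 2) lay well above the highest scramble library (replicate 2). EGR1 rose from 100 ± 4.02 to 129 ± 4.01 CPM (SD over 3 libraries), which is 0.36 on the log2 scale (SE 0.0294; adjusted p = 1.67e-12 in edgeR), or 1.29-fold. Of the 2547 tested genes with a mean of at least 100 CPM, 12.6% were called higher and 44.9% were called lower (median -0.05 on the log2 scale). No annotated exon of another gene overlaps EGR1 in GENCODE 29.

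EGR2 (ENSG00000122877.18, chromosome 10, 62811996 to 62919900, minus strand), which with EGR3 restrains T-cell activation, was close to the limit of the test. It received 25, 20 and 18 scramble reads against 12, 14 and 9 with the MEF2C hairpin, or 0.401, 0.448 and 0.300 CPM and 0.202, 0.142 and 0.173 CPM. All 3 MEF2C hairpin libraries lay under all 3 scramble libraries, opposite in direction to EGR1. The means were 0.383 ± 0.0756 and 0.172 ± 0.0301 CPM (SD over 3 libraries), a log2 fold change of -1.16 with a wide error (SE 0.474). The edgeR adjusted p was 0.0648, with an unadjusted p of 0.0198, and the limma-voom adjusted p was 0.0464, so the call depended on the tool. Adjusted p ran from 0.0464 to 0.214 over 13 alternatives. The 63 scramble reads gave an exact Poisson 95% interval of 0.290 to 0.483 CPM and the 35 MEF2C hairpin reads one of 0.116 to 0.232 CPM, for counting error only.

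EGR3 (ENSG00000179388.9, chromosome 8, 22687659 to 22693302) received 1, 0 and 2 scramble reads against 1, 2 and 0 with the MEF2C hairpin, at or under the floor in every library. The related EGR4 received 1 read in MEF2C hairpin replicate 2 and 0 in the other 5 libraries. Neither was tested, and no fold change is given. EGR1 was thus the only EGR gene in these cells above 1 CPM.

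NAB1, the corepressor described as constitutive (ENSG00000138386.17, chromosome 2, 190646746 to 190692766), measured 84.1, 80.9 and 85.0 CPM in scramble replicates 1 to 3. It measured 74.5, 71.5 and 74.1 CPM in MEF2C hairpin replicates 1 to 3. Every MEF2C hairpin library lay under every scramble library. NAB1 fell from 83.3 ± 2.16 to 73.4 ± 1.63 CPM (SD over 3 libraries), which is -0.19 on the log2 scale (SE 0.0315; adjusted p = 1.32e-05 in edgeR), or 0.879-fold. Among the 5067 tested genes with a mean from 20 to 100 CPM, 23.5% were lower and 17.0% higher, so a fall was common at this level. Other exons in GENCODE 29 cover 4.01% of its exonic bases.

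NAB2, the corepressor known as inducible by EGR factors (ENSG00000166886.13, chromosome 12, 57088894 to 57095476), measured 16.0, 17.7 and 18.1 CPM with the scramble and 18.3, 17.5 and 17.0 CPM in MEF2C hairpin replicates 1 to 3. The groups overlapped. The means were 17.3 ± 1.11 and 17.6 ± 0.661 CPM (SD over 3 libraries). The difference was 0.03 on the log2 scale, with SE 0.0611 and an edgeR adjusted p of 0.804. NAB2 ends against STAT6, the interleukin-4 signal transducer on the other strand, and 69 exonic bases (2.29% of NAB2) are shared. STAT6 had a mean of 51.6 CPM with the scramble and 52.8 CPM with the MEF2C hairpin (log2 fold change 0.04, SE 0.0391, edgeR adjusted p = 0.564), and whether the counting used strand is not stated.

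**Figure D2:**
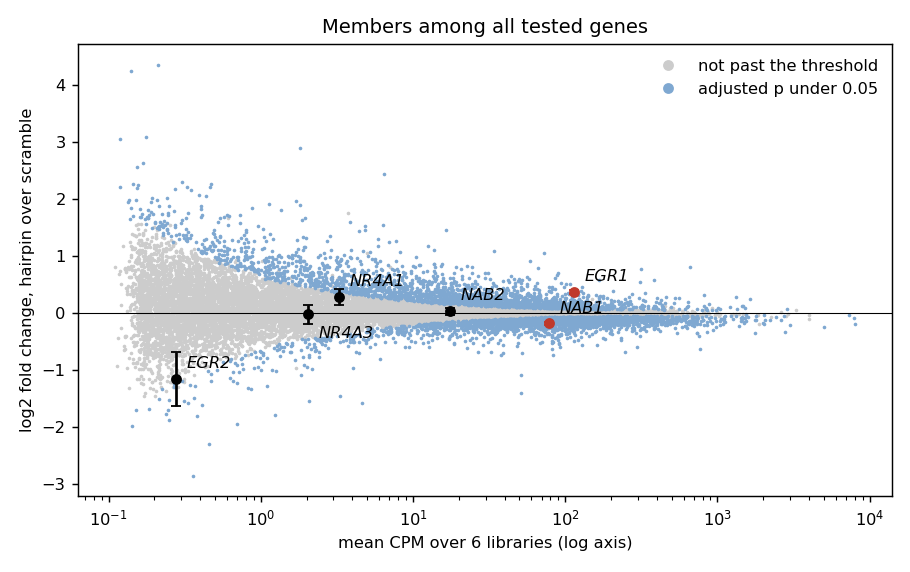
Log2 fold change (MEF2C hairpin over scramble) against mean CPM over the 6 libraries (log axis) for the 17677 tested genes, pale blue where the adjusted p was under 0.05 and grey otherwise. The 6 tested members are labelled with their SE, EGR1 and NAB1 in red as past the threshold and the others in black, with EGR2 at the low-count end where errors are wide.

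Levels between genes were compared as CPM per kilobase of merged exon length. In this unit EGR1 was highest, at 31.9 ± 1.28 with the scramble and 41.1 ± 1.28 with the MEF2C hairpin (SD over 3 libraries). NAB1 followed at 17.0 ± 0.442 and 15.02 ± 0.333, and NAB2 at 5.75 ± 0.368 and 5.84 ± 0.220 CPM per kilobase. The receptors came next, NR4A1 at 0.406 ± 0.0351 and 0.492 ± 0.0337 and NR4A3 at 0.326 ± 0.0364 and 0.320 ± 0.0200, and EGR2 was last of the tested members at 0.104 ± 0.0205 and 0.0468 ± 0.00816 CPM per kilobase. The order EGR1, NAB1, NAB2, NR4A1, NR4A3, EGR2 was the same in all 6 libraries, and in all 6 with the length of a single transcript, that of longest coding sequence. NR4A1 and NR4A3 were the closest neighbours, at 0.368 to 0.528 and 0.284 to 0.349 CPM per kilobase over the 6 libraries, so their ranges did not overlap. That gap depended on the length used, since NR4A1 measured 0.843 CPM per kilobase in scramble libraries with the single transcript, and NR4A3 0.361.

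**Figure D3:**
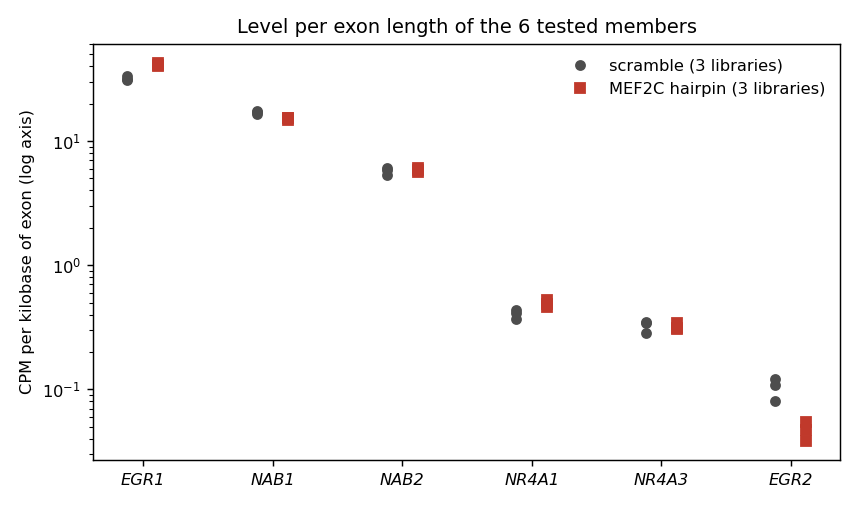
CPM per kilobase of merged exon (log axis) of the 6 tested members, ordered by their scramble mean, in 3 scramble (grey circles) and 3 MEF2C hairpin libraries (red squares). EGR1 lies between 30.9 and 42.5 and EGR2 between 0.0385 and 0.122 CPM per kilobase.

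Per exon length, EGR1 exceeded NAB1 in every library, by a ratio of 1.83, 2.02 and 1.78 with the scramble hairpin and 2.79, 2.73 and 2.69 with the MEF2C hairpin. The ratio therefore combined the higher EGR1 and the lower NAB1, with means of 1.88 ± 0.125 and 2.73 ± 0.0495 (SD over 3 libraries). The ratio of EGR1 to NAB2 was 5.57 ± 0.402 with the scramble and 7.03 ± 0.179 with the MEF2C hairpin (SD over 3 libraries). Both ratios are mRNA ratios, and no protein was measured.

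The other genes of these pathways are given by lists chosen with earlier results of these data known, so the counts are descriptions. Of 34 other immediate-early genes 30 were tested, and 13 were higher, 5 lower and 12 not past the threshold, where 13.5% of all tested genes were higher and 15.3% lower. At the median level of this list, 15.1 CPM, 22.4% of the tested genes from 5 to 20 CPM were higher and 8.75% lower. Their median on the log2 scale was 0.08 beside 0.0041 for all tested genes. KLF10, a Kruppel-like factor induced by TGF-beta, rose from 23.4 ± 1.22 to 30.7 ± 1.17 CPM (SD over 3 libraries). The difference was 0.39 on the log2 scale, with SE 0.0506 and an edgeR adjusted p of 1.02e-07. JUND, an AP-1 subunit, rose by 0.34 (SE 0.0410, edgeR adjusted p = 6.31e-06) and IER3, an early-response gene linked to survival, by 0.66 (SE 0.109, edgeR adjusted p = 9.16e-06) on the log2 scale. The remaining genes that rose were ARC, CSRNP1, CD69, GADD45B, JUNB, FOS, DUSP1, JUN, ZFP36L1 and IER2. Those that fell were KLF2, IER5, KLF6, ATF3 and PPP1R15A, and both sets were listed after their values were seen. The count of 5 lower became 3 without scramble replicate 3 and 3 without MEF2C hairpin replicate 3. The call of DUSP1 was lost without scramble replicate 1, MEF2C hairpin replicate 2 or MEF2C hairpin replicate 3, and that of ARC without MEF2C hairpin replicate 3. Without MEF2C hairpin replicate 1 the calls of IER2 and ZFP36L1 were lost, as they were without scramble replicate 3 for IER2 and scramble replicate 2 for ZFP36L1. ATF3 was lost without any of scramble replicates 2 and 3 and MEF2C hairpin replicates 1, 2 and 3, and PPP1R15A without any of scramble replicates 2 and 3 and MEF2C hairpin replicates 2 and 3. With all libraries kept, ATF3 was also lost under upper-quartile scaling, no filter, DESeq2 and limma-voom.

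**Figure D4:**
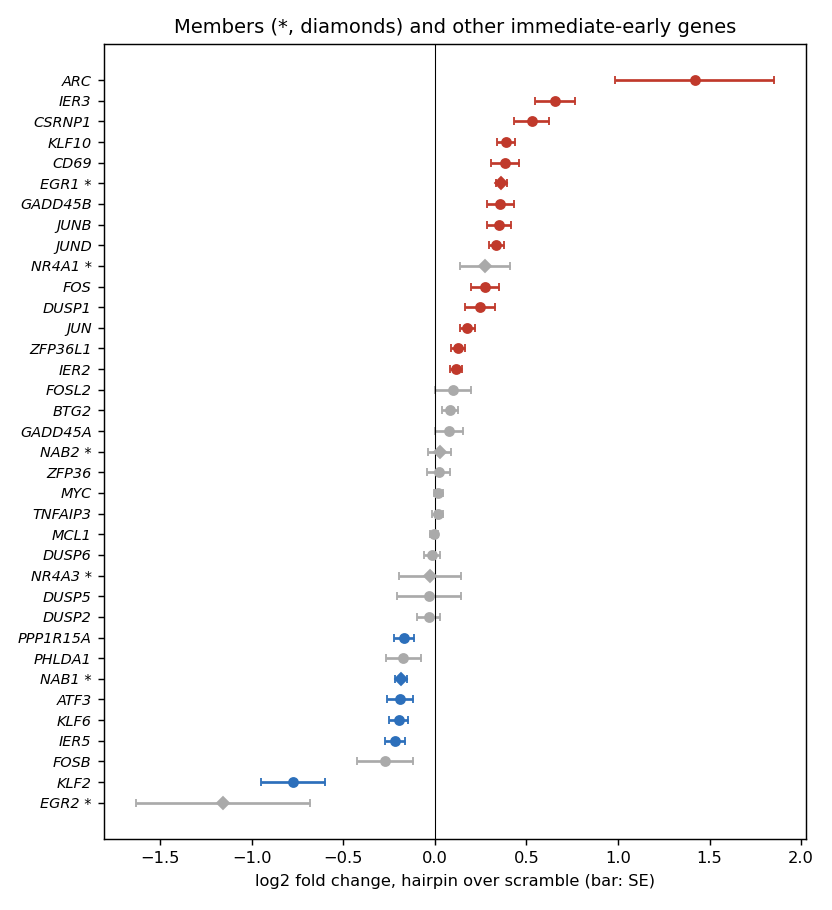
Log2 fold change with SE of the 6 tested members (diamonds, starred) and of 30 tested immediate-early genes (circles), red where higher and blue where lower with an adjusted p under 0.05, grey otherwise. EGR1 at 0.36 lies among CD69, GADD45B, JUNB and JUND, and the widest errors are those of EGR2 and ARC.

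The chain from the T-cell receptor to ERK and SRF, which drives EGR genes, had all 30 genes tested, with 4 higher, 12 lower and 14 not past the threshold. All tested genes gave 13.5% higher and 15.3% lower, but the list had a median level of 75.3 CPM, and 23.5% of genes from 20 to 100 CPM and 44.9% of those above were lower, so the count of lower genes is not read as a result about the chain. Its median log2 fold change was -0.05. NRAS, a RAS isoform, fell from 222 ± 5.31 to 179 ± 4.21 CPM (SD over 3 libraries). The difference was -0.30 on the log2 scale, with SE 0.0243 and an edgeR adjusted p of 1.03e-12. RASGRP1, the diacylglycerol-activated exchange factor that loads RAS in thymocytes, fell by 0.41 (SE 0.0354, edgeR adjusted p = 6.70e-12) and the ERK-activated kinase gene RPS6KA3 by 0.29 (SE 0.0247, edgeR adjusted p = 8.34e-12) on the log2 scale. SRF itself, named after its value was seen, changed by -0.20. The 4 higher genes, also named after their values were seen, were MAPK3 at 0.19, MRTFB at 0.11, PRKCQ at 0.10 and LCK at 0.08. PRKCQ lost its call in 9 of 14 alternatives, among them no filter, the replicate block and DESeq2, and MRTFB in 4. MAPK3 and LCK kept theirs in all 14. The count of 4 higher became 2 without scramble replicate 2, scramble replicate 3 or MEF2C hairpin replicate 3.

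The calcium and MEF2 arm, which acts on NR4A1, had 18 of 20 genes tested, with 2 higher, 6 lower and 10 not past the threshold (median -0.02). The shares over all tested genes were 13.5% higher and 15.3% lower, and the median level of this list was 99.5 CPM, where 23.5% of genes from 20 to 100 CPM and 44.9% of genes at 100 CPM or more were lower, so its 6 lower genes do not stand out. NFATC1, a calcineurin-activated factor, rose from 45.8 ± 1.67 to 69.0 ± 2.20 CPM (SD over 3 libraries). The difference was 0.59 on the log2 scale, with SE 0.0371 and an edgeR adjusted p of 1.60e-15. HDAC7, the class IIa deacetylase of thymocytes that represses MEF2, fell from 169 ± 2.36 to 129 ± 3.29 CPM (SD over 3 libraries). The difference was -0.38 on the log2 scale, with SE 0.0253 and an edgeR adjusted p of 7.55e-15. Other class IIa genes, named after their values were seen, did not all follow. HDAC9 was lower at -0.16, and HDAC4 (574 CPM with the scramble, log2 fold change 0.03) and HDAC5 (0.03) did not pass the threshold. PPP3CB, a calcineurin catalytic subunit, changed by -0.20. The count of 2 higher became 1 without scramble replicate 3. MEF2A was called lower at -0.07 and lost its call in 10 of 14 alternatives, among them those leaving out scramble replicate 1 or 1 MEF2C hairpin library, whichever it was, and MEF2B and MEF2D did not pass the threshold.

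Of 13 subunits of NuRD, the complex NAB proteins recruit, 1 was higher and 4 lower, with RBBP4 at -0.16, RBBP7 at -0.12 and CHD3 at 0.16 on the log2 scale, and a median of -0.05. Of all tested genes 13.5% were higher and 15.3% lower, and at 100 CPM or more, where the median NuRD subunit lay (159 CPM), 12.6% were higher and 44.9% lower, so the 4 lower subunits are no more than the background. CHD4 and MTA2 are named after their values were seen. CHD4 was at -0.02 (edgeR adjusted p = 0.829) and did not pass the threshold. MTA2, called lower at -0.06, lost its call in 11 of 14 alternatives. Of 5 tested NR4A partners 1 was higher, the hypoxia factor HIF1A at 0.10, and 1 lower, the kinase gene STK11 at -0.11, beside the same 13.5% and 15.3% of all tested genes. Both partner calls were lost without replicate 3 of both groups, which also left 2 of the 4 lower NuRD subunits. The number of lower partners became 2 without scramble replicate 1 or without MEF2C hairpin replicate 1.

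Genes linked to EGR factors in T cells had 17 of 23 tested, with 5 higher, 3 lower and 9 not past the threshold (median 0.06), where 13.5% of all tested genes were higher and 15.3% lower. The death-ligand gene TNFSF10 rose by 1.08 (SE 0.0525), the cell-cycle inhibitor gene CDKN1A by 1.06 (SE 0.0900) and the cytokine receptor gene IL2RB by 0.35 (SE 0.0416) on the log2 scale, each past the threshold. CDKN1A went from 5.29 ± 0.518 to 11.0 ± 0.197 CPM (SD over 3 libraries; edgeR adjusted p = 4.95e-12). ID3, the E-protein inhibitor induced by EGR factors downstream of the pre-T-cell receptor, went from 10.3 to 14.3 CPM (log2 fold change 0.48, edgeR adjusted p = 1.39e-06). It is named after its value was seen. RNF128, an anergy gene linked to EGR2 and EGR3, was at 0 reads.

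Genes linked to NR4A receptors had 15 of 18 tested, with 5 higher, 3 lower and 7 not past the threshold (median 0.22), beside 13.5% higher and 15.3% lower over all tested genes. The list had a median level of 13.7 CPM, and of the tested genes from 5 to 20 CPM 22.4% were higher and 8.75% lower. CD5, whose level follows receptor signal strength in thymocytes, went from 8.74 ± 0.587 to 18.6 ± 1.501 CPM (SD over 3 libraries). The difference was 1.09 on the log2 scale, with SE 0.0724 and an edgeR adjusted p of 7.55e-15. RUNX1 changed by -0.27 (SE 0.0214) and TOX2 by -0.36 (SE 0.0302), both past the threshold. BCL2L11, the proapoptotic BH3-only gene, and PDCD1, the checkpoint receptor gene, are named after their values were seen, at 0.15 (edgeR adjusted p = 2.76e-05) and 0.21 (edgeR adjusted p = 0.365). Markers of the T lineage also moved between the groups, with 10 of 16 tested higher and 1 lower (13.5% and 15.3% of all tested genes), and CD5 belongs to that list too. These markers had a median level of 41.9 CPM, and of the tested genes from 20 to 100 CPM 17.0% were higher and 23.5% lower. The part of these markers in these results was not tested.

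The nearest tested protein-coding neighbours of the members are given next, where 28.8% of all tested genes passed the threshold in either direction. EGR1 lies between REEP2 (log2 fold change 0.18, edgeR adjusted p = 0.192) and ETF1 (-0.05, edgeR adjusted p = 0.146), which did not pass the threshold. NR4A1 has TAMALIN on one side, at -0.18 (edgeR adjusted p = 0.556), and on the other ATG101, an autophagy gene 9739 bases away, which fell from 29.2 to 20.3 CPM (log2 fold change -0.52, SE 0.0542, edgeR adjusted p = 7.89e-10). NEMP2, next to NAB1, was at 0.07 (edgeR adjusted p = 0.201) and did not pass the threshold. NAB2 is flanked by NEMP1, 831 bases away, at 0.03 and STAT6 at 0.04, neither past the threshold. The neighbours of EGR2, ADO and NRBF2, measured 0.07 and 0.0015, those of NR4A3, SEC61B and STX17, 0.02 and -0.002, and those of NR4A2, RPRM and ACVR1, -0.56 and -0.05, none of them past the threshold. Next to the undetected EGR3, BIN3 measured 0.09 and did not pass, and RHOBTB2 was lower at -0.45 (edgeR adjusted p = 0.00543).

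Likeness of pattern was measured as Pearson's r of log2 CPM over the 6 libraries, among protein-coding genes averaging 5 CPM or more; it is given with no test. The group difference and shared libraries enter every r. Each member was set against 9454 or 9455 genes over only 6 libraries, so high values at the top are not read as specific. An r over 0.99 was reached by 37 genes for EGR1, 15 for EGR2, 11 for NAB1, 3 for NR4A1 and 0 for NR4A3 and NAB2. AJM1, SLC39A11 and LST1 were most like EGR1 (r = 0.999, 0.998 and 0.997). STK24, G3BP1 and H2AZ1 were most like NAB1 (0.997, 0.996 and 0.996), and ZFAND6, SLC39A10 and TTLL4 most like NR4A1 (0.998, 0.992 and 0.991). FBXO21, MRRF and NDUFAF6 led for EGR2 (0.997, 0.995 and 0.995), ABRAXAS1, TMOD2 and MTFR1L for NR4A3 (0.985, 0.973 and 0.962), and ATP5MC3, INPP5E and DNMBP for NAB2 (0.971, 0.967 and 0.967).

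The calls of EGR1 and NAB1 held in all 14 alternatives, with a log2 fold change of 0.34 to 0.40 for EGR1 and -0.20 to -0.17 for NAB1. NR4A1 stayed positive in all 14, from 0.16 to 0.34, and past the threshold in none (adjusted p 0.0999 to 0.549).

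**Figure D5:**
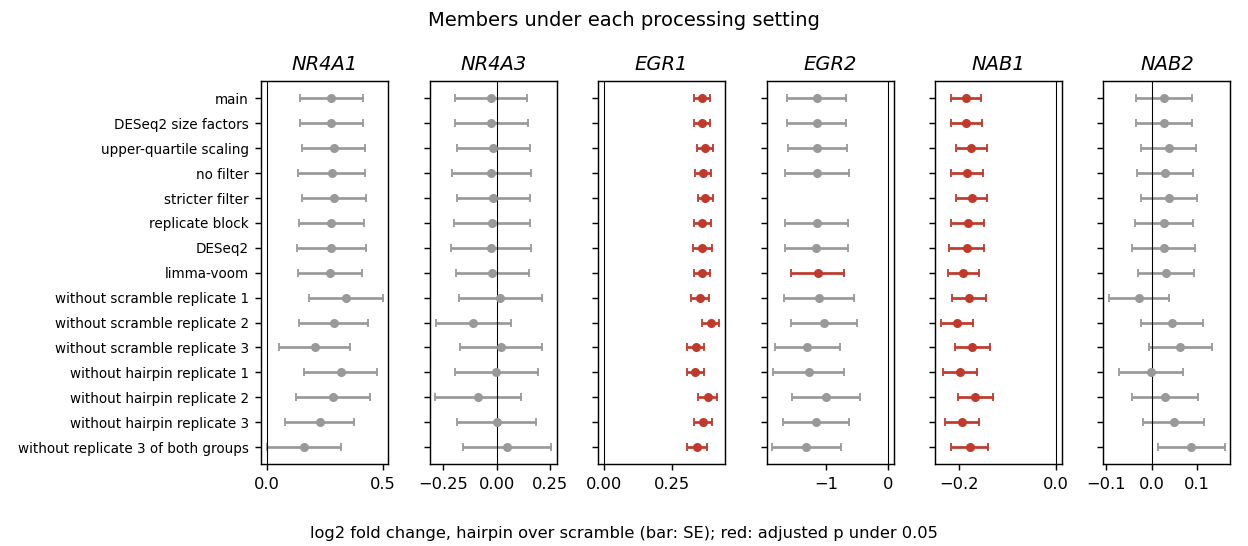
Log2 fold change with SE of the 6 tested members under the 15 processing settings (rows), each panel with its own horizontal scale, red where the adjusted p was under 0.05. EGR1 and NAB1 are red in every row, EGR2 in limma-voom only, and EGR2 has no value under the stricter filter.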

How the data were processed

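The deposited values were whole-number read counts per gene identifier, 1 file per library, made by the authors and not normalized. The submitters' processing notes name Trim Galore, STAR, HTSeq and the build hg38, and per the labels' protocols RNA was extracted with TRIzol and libraries made with TruSeq. Versions, annotation release and strand setting are not given in the sources used here. The 5 summary lines, 19.2% to 31.4% of reads, stayed out of library sizes and tests. Identifiers were matched without version suffix to symbols (77.9% of all, 94.2% of tested genes). Positions, exon lengths and overlaps came from GENCODE 29 on GRCh38.

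Genes were kept by filterByExpr (minimum count 10), scaled by TMM and fitted with edgeR 4.0.16 under R 4.3.3, a robust quasi-likelihood model with group as its only term. A positive log2 fold change means more RNA with the MEF2C hairpin. Its SE was taken as its size divided by the root of the F statistic, adjusted p is Benjamini-Hochberg over 17677 genes with a threshold of 0.05, and CPM uses TMM-scaled library sizes. Likeness used log2 CPM with a prior count of 2. The chi-square statistic per gene between replicates, 3.31 to 4.46, was above sampling noise, so none was merged. On counts simulated for these 17677 genes, the test recovered 23, 41, 44 and 48 of 50 genes at true absolute log2 fold changes of 0.25, 0.5, 1 and 2, and called 4 of 17477 unchanged genes. The simulation gave all genes a common dispersion and changed few of them, where 28.8% of tested genes were called in the data. Its recovery therefore need not hold for these data, least of all for low genes such as EGR2.

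Named genes were the 8 members, EGR4 and the MEF2 genes, up to 3 called members per list with the smallest adjusted p, the nearest tested neighbours (1 is not reported here), and the 3 genes most like each tested member. Members and lists were chosen with earlier results of these data known. Alternatives were DESeq2 size factors, upper-quartile scaling, no filter, a stricter filter (1 CPM in 3 libraries), a replicate block, DESeq2 1.42.0, limma-voom (limma 3.58.1), and leaving out each library or replicate 3 of both groups. The single-transcript length was added after seeing the data.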

Additional observations from a re-analysis of the deposited data

How the results depend on the processing

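EGR1 and NAB1 kept direction and call in 14 of 14 alternatives each, and NR4A1 stayed short of the threshold in all 14. EGR2 passed it with limma-voom only, at a log2 fold change of -1.14 (limma-voom adjusted p = 0.0464), which made 2 members lower in place of 1, and it had no value under the stricter filter. NR4A3, near 0, changed sign to 0.017 without scramble replicate 1, 0.021 without scramble replicate 3 and 0.049 without replicate 3 of both groups. NAB2 changed sign to -0.027 without scramble replicate 1 and -0.0015 without MEF2C hairpin replicate 1. Leaving libraries out gave log2 fold changes of 0.16 to 0.34 for NR4A1, -0.11 to 0.049 for NR4A3, 0.34 to 0.40 for EGR1, -1.32 to -1.01 for EGR2, -0.20 to -0.17 for NAB1 and -0.027 to 0.087 for NAB2 (0.063 without scramble replicate 3). Over all 14 alternatives, genes past the threshold numbered 1810 to 2549 higher and 2176 to 2741 lower. The replicate numbers did not pair the libraries, with correlations of -0.0135, -0.0137 and -0.0031 between same-numbered libraries. The replicate block gave 2308 higher and 2584 lower genes and changed the call of no member. Few or no reads limit what can be said of NR4A2, EGR3 and EGR2: the first had 0 reads, the next at most 2 in a library and EGR2 at most 25.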
